A study of Mus musculus with 24 samples.

Results

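Genes whose transcripts or proteins are commonly used to recognise astrocytes, namely Gfap, Aqp4, Slc1a2, Slc1a3, S100b, Aldh1l1, Gja1 and Sox9, were followed through DNA methylation tables of mouse liver, brain and heart. They were chosen by name, as 8 of 24963 autosomal genes with a curated RefSeq transcript. Methylation had been measured by reduced representation bisulphite sequencing (RRBS), which reads the CpGs near restriction sites, and is given as a level between 0 and 1, the methylated fraction, for windows of 100 bp called tiles. Every tile between 5000 bp before the start and the end of a gene was taken, which gave 214 tiles in liver, 231 in brain and 228 in heart, of 819713, 942643 and 930358 in the whole tables. There were 242 in any table and 201 in all 3, of 1005908 and 758685.

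The animals were untreated mice of the inbred strain C57Bl/6J at 24 weeks of age. Liver was represented by 12 libraries (6 female and 6 male mice), brain by 6 and heart by 6 (3 female and 3 male mice each). By the study's methods these were bulk pieces from mice selected as littermate pairs: a coronal slice from the rostral end of the brain, the apex of the heart and the tip of the left liver lobe. The level columns could be assigned to a tissue but not to a mouse or a gender, so the tissues were compared with both genders mixed.

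Astrocytes are glial cells of the central nervous system that clear glutamate and potassium from around synapses, couple to each other through gap junctions and contact blood vessels with their end-feet. CpG-rich promoters are usually unmethylated in all tissues whether or not the gene is expressed, whereas CpG-poor regulatory regions inside and around genes are more often the places where methylation differs between cell types. None of the 8 genes is expressed in astrocytes alone. Gja1, for example, also encodes the main gap junction protein of heart muscle, and Aldh1l1 encodes a folate enzyme that is abundant in liver. In bulk tissue, fewer cells of a type and a different methylation level per cell cannot be told apart.

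Mean levels over the whole table ran from 0.648 to 0.661 in the liver libraries, from 0.637 to 0.664 in brain and from 0.596 to 0.603 in heart, and libraries of a tissue correlated at 0.942 to 0.977 across tiles. Heart thus lay lower than the other tissues throughout: the median difference over all tiles was -0.035 for heart minus liver and 0.03 for brain minus heart, against -0.0028 for brain minus liver. The tissue labels were checked on marker genes. The gene bodies of 7 of 7 measured hepatocyte genes were lowest in liver, and those of 6 of 7 measured cardiomyocyte genes were lowest in heart. Among 8 neuronal genes the body mean was lowest in brain for 4, among 8 oligodendrocyte genes for 6 and among 6 microglial genes for 0. Among the 8 astrocyte genes it was lowest in brain for 4, and among 23 further genes expressed in astrocytes for 6. Heart was lowest for 13 of those 23 and for 4 of the 6 microglial genes. The check was therefore weaker for brain and heart than for liver. Endothelial genes were lowest in heart in 4 of 4 bodies, with medians of 0.504 in heart, 0.726 in brain and 0.72 in liver. The part of these other cell types in the results below was not tested.

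In the astrocyte genes the tissues differed at many tiles, and liver was most often the tissue that stood apart. In 47 of the 201 tiles (23.4%) the highest and lowest tissue means lay 0.3 or more apart, against 13.7% of all tiles. They lay in 7 of the 8 genes, with none in Gfap. Liver stood apart as the highest tissue in 19 of them (40.4%, against 19.6% of all tiles with such a span) and as the lowest in 10 (21.3%, against 19.4%). Most of the 19 lay in Slc1a3 and Sox9 and most of the 10 in Aldh1l1, many close together. Tiles of a gene are not independent, so these shares rest on few stretches. Heart stood apart as the lowest in 13 (27.7%, against 32.8%), and brain as the lowest in 3 (6.38%, against 12.5%) and as the highest in 2 (4.26%, against 14.1%). Here the tissue named is the one, highest or lowest, whose mean lay farther from the middle one of the 3 means. At the edge of this limit, the closest tiles inside were 1 of Slc1a2 (a span of 0.302) and 1 of Sox9 (0.3022), and the closest outside was 1 of Aqp4 (0.2992). Of 29 further tiles present in 2 of the 3 tables, 3 spanned 0.3 or more, each of them lower in heart than in brain: 1 in the promoter of Aldh1l1, 1 in Slc1a2 (0.7 in brain, 0.358 in heart) and 1 in Gja1 (0.682 and 0.353).

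For a test, the levels were fitted with limma over all 758685 tiles, and a tile was called at an adjusted p of 0.01 or less (Benjamini-Hochberg over all tiles) and a difference of at least 0.25. Of the 201 astrocyte gene tiles, 29 (14.4%) were lower in brain than in liver, against a background of 5.04% of all tiles, and 14 (6.97%) were higher, against 4.76%. Between heart and liver, 35 (17.4%) were lower in heart, against 7.94%, and 7 (3.48%) were higher, against 2.87%. The counts between brain and heart were smaller. In brain, 3 tiles (1.49%) were lower than in heart, against 1.76% of all tiles, and 17 (8.46%) were higher in brain, against 7.71%, so that both shares lay near the background. The median difference over the 201 tiles was -0.0115 for brain minus liver, 0.0052 for brain minus heart and -0.0279 for heart minus liver. All 3 comparisons share libraries with each other. Single tiles named below for their span were picked by the same values that were fitted. Their differences and p-values are therefore given as description, and no test is read from that selection. Without the library of brain column 1, which lay farthest from its group, 29 tiles were lower and 13 higher in brain than in liver. Without heart column 6, 5 tiles in place of 3 were lower in brain than in heart.

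**Figure D1:**
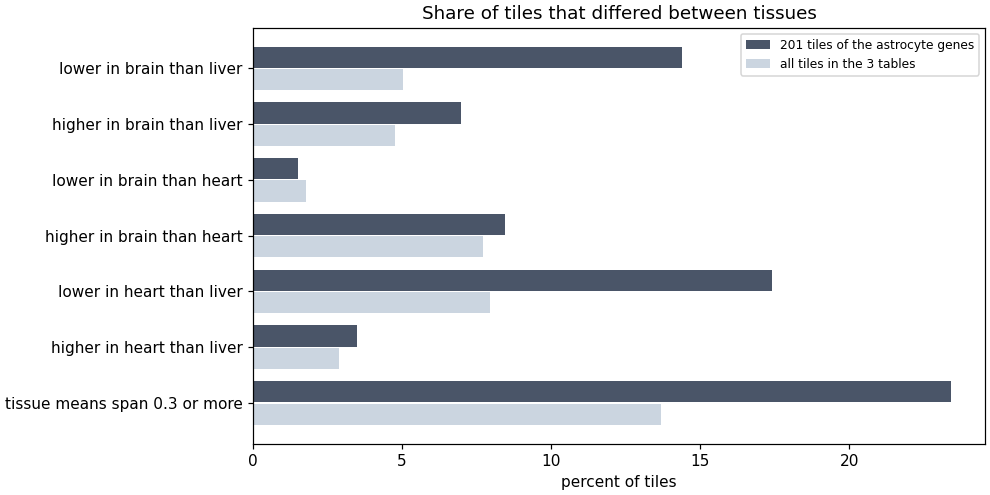
Horizontal bars give the percent of tiles past each call, on an axis from 0, for the 201 tiles of the astrocyte genes (dark) and for all 758685 tiles (light). The dark bar is longer by the most for tiles lower in heart than in liver (17.4% against 7.94%) and lower in brain than in liver (14.4% against 5.04%), and about equal for both comparisons of brain with heart.

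At the level of whole promoters, 4 of the 8 genes had tiles within 1000 bp before a curated transcription start, and 1 of them was called between tissues, that of Aldh1l1, which was higher in brain than in liver. Over 15206 genes with promoter tiles, 1.94% were called higher in brain than in liver and 1.4% lower; 1.88% were higher and 0.395% lower in brain than in heart; 1.27% were higher and 2.23% lower in heart than in liver. All 8 genes had body tiles, and no body mean was called. Among 20420 genes the corresponding shares for bodies were 1.44% and 0.749% (brain higher and lower than liver), 1.2% and 0.206% (brain higher and lower than heart) and 0.852% and 1.47% (heart higher and lower than liver). Several body means differed at an adjusted p below 0.01 by less than 0.25. The Aldh1l1 body was higher in brain than in liver by 0.216 ± 0.0098 (SE; limma adjusted p = 1.8e-15), the Gja1 body was lower in heart than in liver by 0.199 (difference -0.1987 ± 0.0061, limma adjusted p = 1.3e-18), and the Sox9 body was lower in brain than in liver (difference -0.1538 ± 0.0051, limma adjusted p = 4.3e-18).

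**Figure D2:**
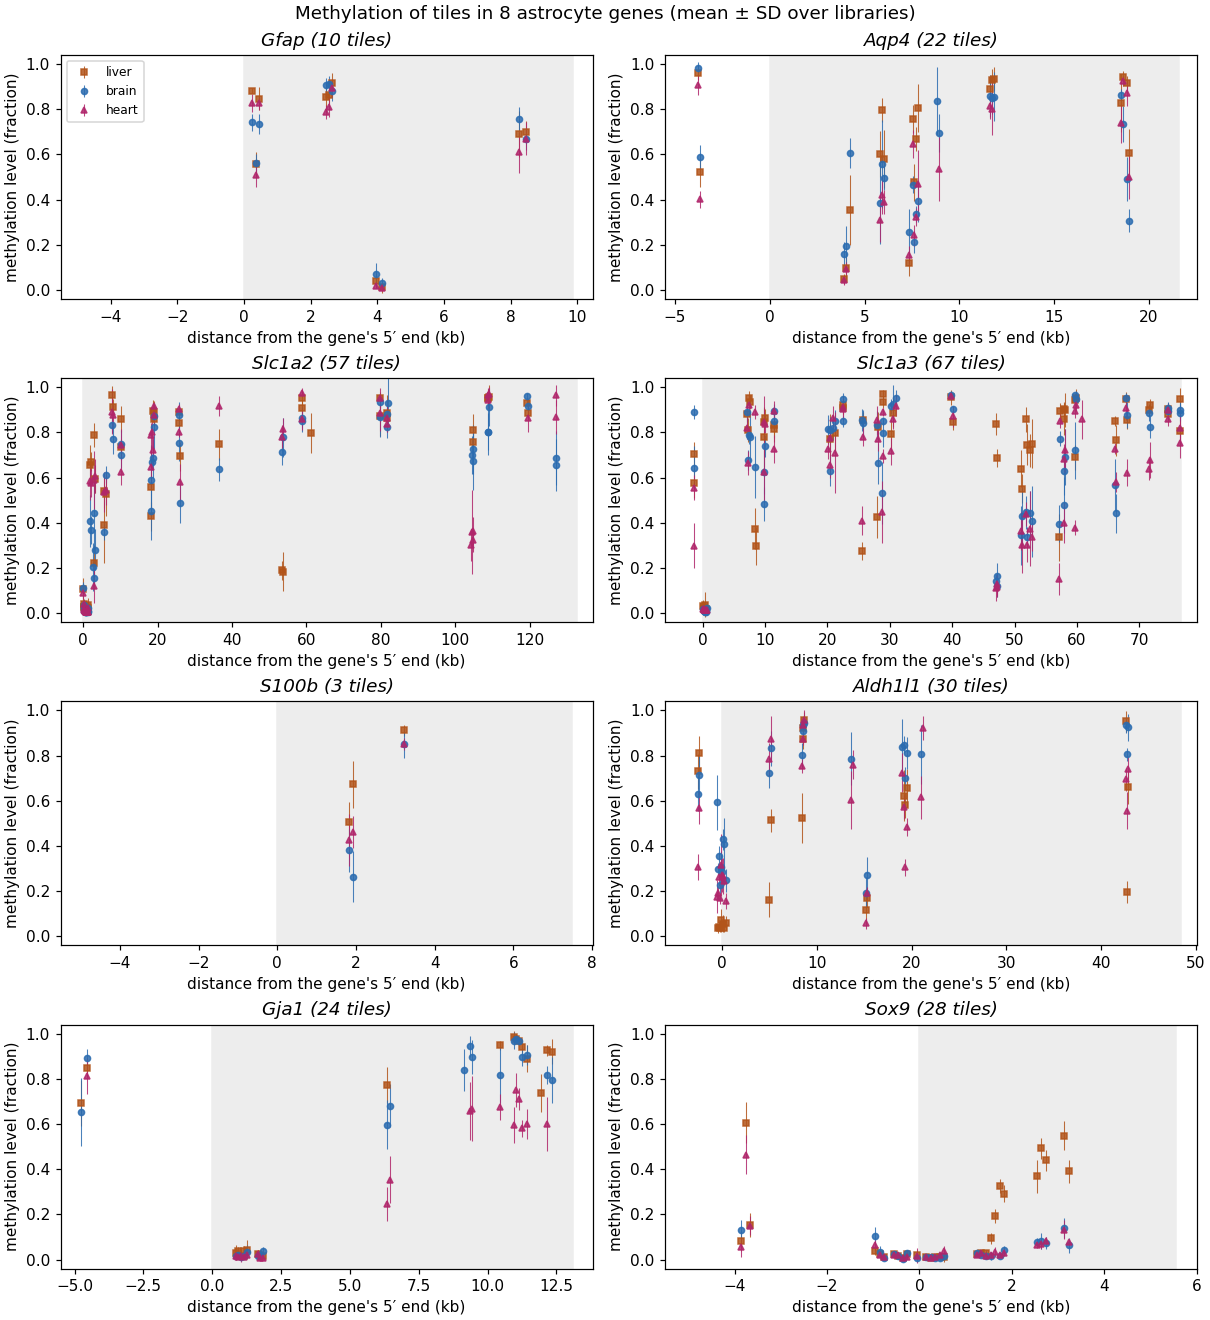
Each panel shows 1 gene, with the methylation level (0 to 1) of its tiles, but for 1 of Gja1 that is left out, against its distance from the gene's 5′ end in kb; points are tissue means, error bars are SD over 12 liver, 6 brain and 6 heart libraries, and grey marks the gene. Starts of Slc1a2, Slc1a3 and Sox9 lie near 0 in all tissues, and the start of Aldh1l1 lies near 0 in liver only. Gja1 has no tile at its start, and its tiles from +850 to +1850 bp lie near 0 in all tissues. Farther inside the genes, Gja1 separates heart and Sox9 separates liver.

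Aldh1l1 encodes a 10-formyltetrahydrofolate dehydrogenase, an enzyme of folate metabolism whose promoter is widely used to mark astrocytes. The gene lies on the plus strand of chromosome 6, from 90550768 to 90599171 (mm10, GeneID 107747). It was the astrocyte gene in which brain was higher than liver most often: 9 of its 23 tiles present in all tables were called higher in brain than in liver and 0 lower. The promoter was nearly unmethylated in liver, at 0.0462 ± 0.0147 (mean of 4 tiles ± SD, n = 12), and partly methylated in brain at 0.298 ± 0.0261 (n = 6) and in heart at 0.234 ± 0.0533 (n = 6). The 12 liver libraries ran from 0.0255 to 0.076 with a median of 0.0447. Brain libraries ran from 0.272 to 0.343 (median 0.299) and heart libraries from 0.191 to 0.322 (median 0.219), so liver overlapped with neither, while brain and heart overlapped. The difference between brain and liver was 0.252 ± 0.0149 (SE; limma adjusted p = 3.1e-13). It lay just past the limit of 0.25, and without liver column 3 (0.2498) or brain column 2 (0.2427) the promoter was no longer called. Heart minus liver was 0.188 (limma adjusted p = 1.1e-10) and brain minus heart 0.0634 (limma adjusted p = 0.0067). Both had an adjusted p below 0.01 but a difference below 0.25, so neither was called.

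The stretch of this promoter with the 3 tiles of 5, 5 and 2 CpGs is shown because liver was the lowest tissue throughout it. Every CpG is in capitals. Brain minus liver was called in the tile at -342 bp (0.315), but not at -242 bp (0.193) or -142 bp (0.237). At -142 bp brain had 0.308 and heart 0.3145. The stretch is chr6:90550401-90550700 (mm10), plus strand, before the curated start and outside transcribed sequence, with 12 CpGs in 300 bp.
Aldh1l1 promoter: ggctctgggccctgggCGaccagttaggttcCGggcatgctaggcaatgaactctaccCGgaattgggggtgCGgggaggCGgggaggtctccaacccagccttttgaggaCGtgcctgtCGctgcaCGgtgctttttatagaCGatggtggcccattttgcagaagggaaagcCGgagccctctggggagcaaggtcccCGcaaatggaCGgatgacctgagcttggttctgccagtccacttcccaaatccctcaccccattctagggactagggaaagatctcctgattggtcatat

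Among single tiles of this stretch, the one at chr6:90550401-90550500 had 0.043 ± 0.016 in liver, 0.358 ± 0.042 in brain and 0.264 ± 0.042 in heart. Liver libraries ran from 0.011 to 0.067 (median 0.047), brain libraries from 0.307 to 0.416 (median 0.345) and heart libraries from 0.208 to 0.319 (median 0.262). Liver stood clear of the other tissues there, and brain was higher than liver by 0.315 ± 0.0151 (limma adjusted p = 2.9e-15). The same order continued past the start, in the 5′ untranslated exon: the tile at +58 bp had 0.055 in liver, 0.429 in brain and 0.268 in heart, and the tile at +158 bp had 0.038, 0.407 and 0.244. Nearest to the start, at -42 bp, a tile was present in the brain (0.286 ± 0.035) and heart (0.272 ± 0.075) tables only. A further tile at -542 bp, likewise absent from the liver table, had 0.593 in brain (0.436 to 0.8) and 0.176 in heart (0.069 to 0.263), without overlap.

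**Figure D3:**
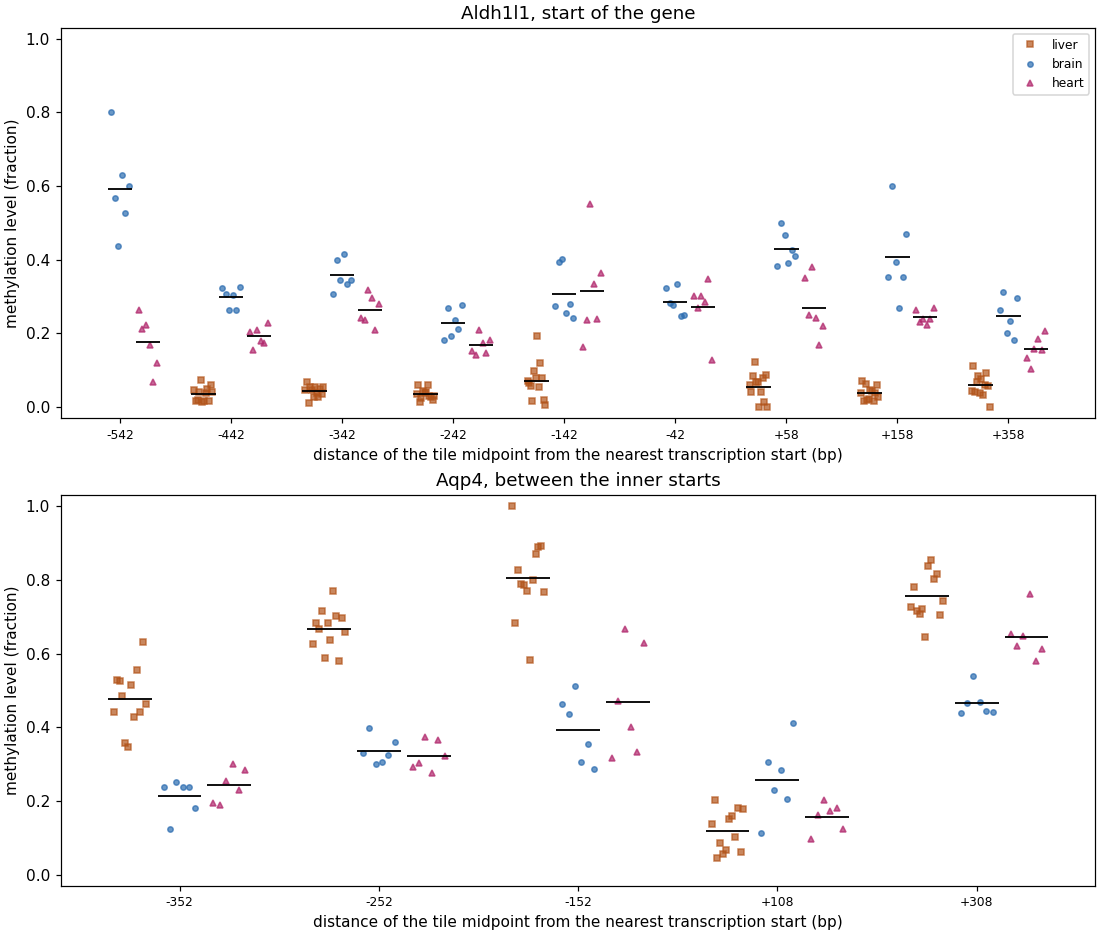
Points are single libraries and black bars tissue means of the methylation level (0 to 1) in each tile, placed in order of its distance in bp from the nearest transcription start, for the start of Aldh1l1 (upper) and the stretch between the inner starts of Aqp4 (lower). At Aldh1l1 the liver libraries stay at or below 0.192 in every tile with a liver value, where brain means run from 0.228 to 0.429. The tiles at -542 bp (brain mean 0.593) and -42 bp have no liver value. At Aqp4 the liver means are the highest in 4 of 5 tiles.

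Within the body of Aldh1l1, liver was also the lowest tissue at 3 intronic tiles with a span of 0.3 or more. At +4.96 kb (chr6:90555701-90555800) liver had 0.163 ± 0.078, brain 0.721 ± 0.063 and heart 0.783 ± 0.073. At +5.16 kb the levels were 0.514, 0.831 and 0.874. At +42.8 kb (chr6:90593501-90593600) liver had 0.197 ± 0.047, brain 0.806 ± 0.029 and heart 0.557 ± 0.08, with no overlap among the tissues (liver at most 0.25, heart 0.444 to 0.652, brain at least 0.761). Of the tiles on both sides of the latter, the one before had 0.952 in liver, 0.936 in brain and 0.695 in heart, and the one behind had 0.661, 0.924 and 0.742 and was also called higher in brain than in liver. By contrast, 3 coding exon tiles around +8.5 kb were at 0.873 to 0.958 in every tissue. The intronic tile adjoining them, at +8.36 kb, had 0.523 in liver, 0.804 in brain and 0.754 in heart, and was called higher in brain than in liver. Heart was the low tissue upstream, at -2.54 kb, with 0.306 ± 0.058 against 0.731 in liver and 0.63 in brain, and in the intron at +19.3 kb, with 0.305 ± 0.038 against 0.58 and 0.7. At +19.5 kb the levels were 0.483 in heart, 0.658 in liver and 0.811 in brain.

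Slc1a2 and Slc1a3 encode the plasma membrane glutamate transporters GLT-1 and GLAST, which take up glutamate released at synapses. Slc1a2 covers 102658239 to 102790784 on the plus strand of chromosome 2 (GeneID 20511) and had 47 tiles in all tables. Its first promoter was unmethylated in every tissue, with means of 0.0501 ± 0.014 in liver, 0.046 ± 0.0089 in brain and 0.0405 ± 0.0087 in heart over 4 tiles, and 12 tiles between -338 and +962 bp of a start were below 0.1 in all tissues. The promoter tile nearest to a start, at -138 bp, had 0.029 ± 0.014 in liver, 0.011 ± 0.006 in brain and 0.015 ± 0.01 in heart, and the libraries of the 3 tissues overlapped. Just behind this unmethylated start, in the first intron, brain was the lowest tissue at 3 tiles. At +1.56 kb brain had 0.368 ± 0.061 (0.308 to 0.468, median 0.347), against 0.67 ± 0.042 in liver (0.599 to 0.74) and 0.576 ± 0.063 in heart (0.508 to 0.681), so that brain overlapped with neither. At +2.86 kb brain had 0.281 ± 0.09 (0.132 to 0.388), against 0.594 ± 0.063 in liver and 0.607 ± 0.076 in heart, and was lower than liver (difference -0.3125 ± 0.0377, limma adjusted p = 1.3e-07) and lower than heart (difference -0.3258 ± 0.0436, limma adjusted p = 1.1e-06). At +2.36 kb the brain libraries were wide, from 0.233 to 0.714, and overlapped with heart (0.385 to 0.738) but not with liver (0.724 to 0.875). The RefSeq locus LOC115489466 overlaps these intronic tiles.

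Farther inside Slc1a2, 5.31 and 5.41 kb behind the second curated start, 2 adjoining intronic tiles were low in liver alone. The first had 0.19 ± 0.042 in liver (0.103 to 0.261, median 0.181), 0.713 ± 0.059 in brain (0.64 to 0.776, median 0.729) and 0.78 ± 0.051 in heart (0.729 to 0.856, median 0.767). The second, with a single CpG, had 0.183 ± 0.086, 0.777 ± 0.085 and 0.817 ± 0.048, and brain was higher than liver by 0.594 ± 0.0396 (limma adjusted p = 1.9e-12). At neither tile did liver overlap with brain or heart, while brain and heart overlapped. Another pair of intronic tiles, 56.4 and 56.6 kb behind that start, was low in heart, with 0.363 ± 0.061 and 0.322 ± 0.052 against 0.672 to 0.809 in the other tissues.

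In Slc1a3, on the minus strand of chromosome 15 from 8634124 to 8710807 (GeneID 20512), no tile fell within the 1000 bp before the start, and 6 tiles between 56 and 556 bp behind it were below 0.1 in all tissues. The tile nearest to the start had 0.0319 ± 0.0246 in liver, 0.0183 ± 0.0236 in brain and 0.0183 ± 0.0246 in heart. This gene had the most tiles and also the largest number with a span of 0.3 or more, 14 of 57. That share (24.6%) lay near the 23.4% of all 8 genes. It was below those of Aldh1l1 (39.1%), Gja1 (33.3%) and S100b (33.3%, of only 3 tiles). Of the Slc1a3 tiles, 12 were called lower and 3 higher in brain than in liver. Against liver, 11 were lower and 2 higher in heart. The largest span among the astrocyte genes was found in Slc1a3, in an intron 47.1 kb behind the start. There liver had 0.837 ± 0.049, brain 0.14 ± 0.034 and heart 0.11 ± 0.056. Liver libraries ran from 0.74 to 0.919 (median 0.848), brain libraries from 0.085 to 0.187 (median 0.143) and heart libraries from 0.054 to 0.183 (median 0.103). Every brain and heart library thus lay far below every liver library, while brain and heart overlapped. Brain was lower than liver (difference -0.6971 ± 0.0274, limma adjusted p = 8.5e-17) and heart was lower than liver (difference -0.7274 ± 0.0274, limma adjusted p = 8.6e-17). The adjoining tile at +47.2 kb repeated this order with 0.685, 0.119 and 0.128.

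The tiles with the largest span in the transporter genes are printed with their CpGs in capitals. The tile levels separated liver from brain and heart, but a level is given per tile, so the part of each CpG is unknown. The Slc1a3 tile is chr15:8663701-8663800, which holds 5 CpGs in its first part and lies in an intron, and the Slc1a2 tile is chr2:102711801-102711900, with 1 CpG at its start, also in an intron (mm10, plus strand of the genome for both, so that Slc1a3 is read here against its own direction).
Slc1a3 intron: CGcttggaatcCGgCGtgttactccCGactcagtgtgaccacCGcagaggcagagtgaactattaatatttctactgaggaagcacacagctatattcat
Slc1a2 intron: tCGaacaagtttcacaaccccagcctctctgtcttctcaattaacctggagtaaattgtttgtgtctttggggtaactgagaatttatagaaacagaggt

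A wider intronic stretch of Slc1a3, from +51.9 to +52.8 kb, followed the same order at 4 tiles, with 0.72 to 0.857 in liver, 0.339 to 0.446 in brain and 0.303 to 0.439 in heart. At +57.9 kb liver had 0.859, brain 0.48 and heart 0.399. Farther inside, at +59.7 kb, heart alone was low, with 0.378 against 0.69 in liver and 0.72 in brain, and at +66.3 kb brain had the lowest mean, with 0.442 against 0.764 in liver and 0.58 in heart. The opposite order was found at 3 intronic tiles nearer to the start. At +25.6 kb, liver had 0.274 ± 0.039 (0.233 to 0.372), heart 0.41 ± 0.064 (0.349 to 0.515) and brain 0.856 ± 0.049 (0.786 to 0.923), so that brain stood above both, by 0.582 ± 0.0272 over liver (limma adjusted p = 1.8e-15) and by 0.446 ± 0.0314 over heart (limma adjusted p = 3.0e-11). At +28.0 kb liver had 0.427, brain 0.835 and heart 0.853. At +8.36 kb the levels were 0.374 in liver, 0.645 in brain and 0.891 in heart, and the call between brain and liver was lost without brain column 1 (0.2408) or brain column 6 (0.2378). The pair of upstream tiles at -1.34 and -1.44 kb was lowest in heart, with 0.298 ± 0.1 and 0.556 ± 0.057 against 0.644 ± 0.097 and 0.89 ± 0.032 in brain; both overlap the RefSeq locus Gm31340.

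**Figure D4:**
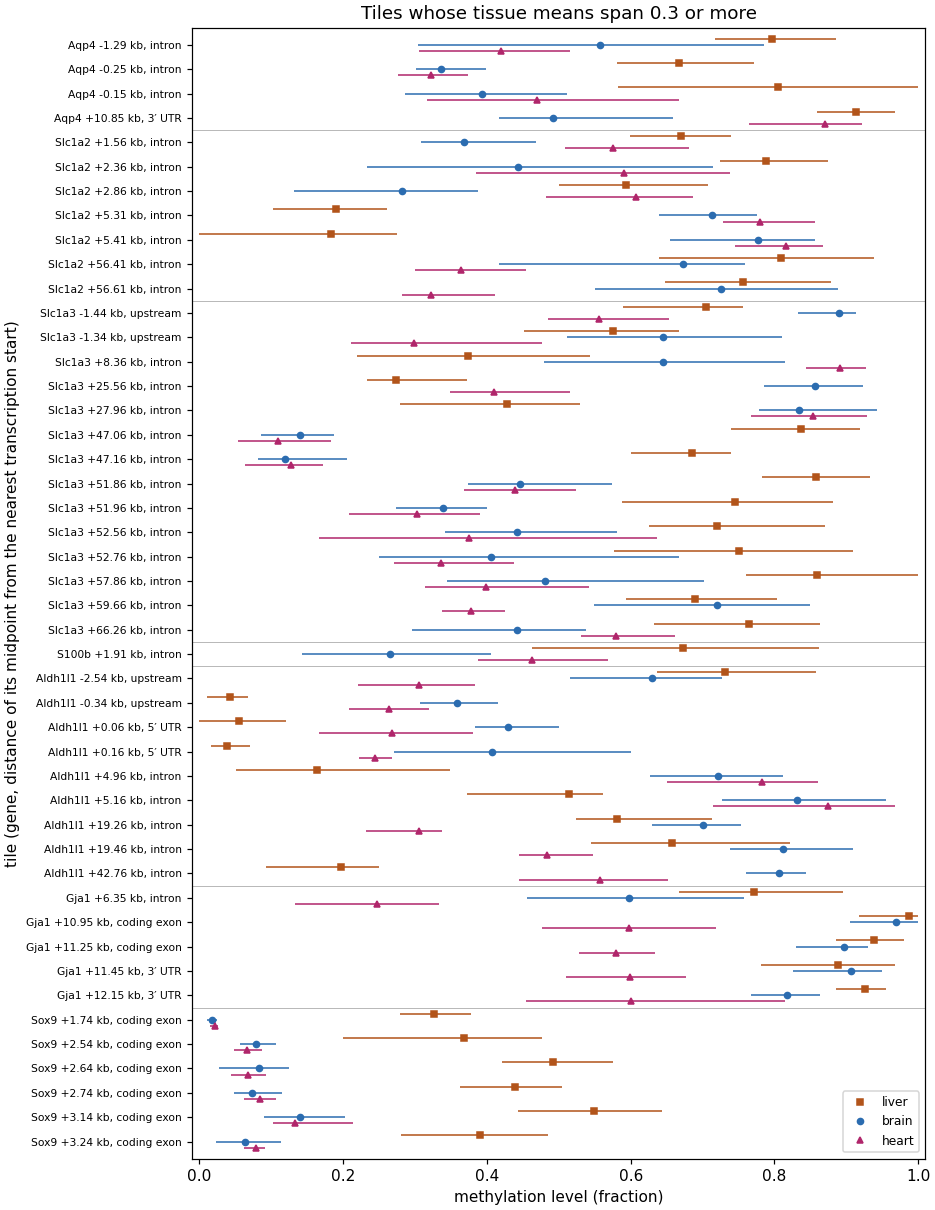
Symbols are tissue means and lines run from the lowest to the highest library for the methylation level (0 to 1) of 46 of the 47 tiles with a span of 0.3 or more, grouped by gene and labelled with the distance in kb from the nearest transcription start. Liver stands to the right of brain and heart in most intronic tiles of Slc1a3 and in all 6 of Sox9, and heart stands to the left in the 5 of Gja1 that are drawn.

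Sox9 encodes a transcription factor of the SOX family that is required for gliogenesis and also acts in cartilage, bile ducts and heart valves. It lies on the plus strand of chromosome 11 from 112782210 to 112787757 (GeneID 20682). The promoter was unmethylated in every tissue, at 0.0207 ± 0.0081 in liver, 0.029 ± 0.0071 in brain and 0.0212 ± 0.0075 in heart over 8 tiles. In the promoter tile nearest to the start, at -60 bp, liver had 0.0197 ± 0.0222, brain 0.0083 ± 0.0079 and heart 0.0168 ± 0.0336. The low level continued into the gene in all tissues, and 16 tiles from -860 to +1540 bp were below 0.1 throughout. Farther into the gene, liver was methylated while brain and heart were not or only slightly. At +1540 bp liver had 0.093 ± 0.025, at +1640 bp 0.194 ± 0.031, at +1740 bp 0.326 ± 0.031 and at +3140 bp 0.548 ± 0.064. At +2540, +2740 and +3240 bp liver had 0.368, 0.439 and 0.39, and brain and heart had 0.063 to 0.084. Brain had 0.017 ± 0.006 at +1740 bp and 0.14 ± 0.043 at +3140 bp, and heart had 0.022 ± 0.005 and 0.133 ± 0.041. All 7 tiles in all tables from +1740 to +3240 bp were called lower in brain than in liver and lower in heart than in liver, and no liver library of these tiles overlapped with brain or heart.

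The tile at +2640 bp had the largest span of the gene, with liver libraries from 0.421 to 0.575 (median 0.477), brain libraries from 0.027 to 0.124 (median 0.088) and heart libraries from 0.044 to 0.092 (median 0.066). Brain was lower than liver (difference -0.4097 ± 0.02, limma adjusted p = 4.3e-15), and brain and heart did not differ beyond their spread (difference 0.0153 ± 0.0231, limma adjusted p = 0.64). It lies in a coding exon at chr11:112784801-112784900 (mm10, plus strand), and its 7 CpGs in capitals show that the tissues differed in CpG-dense coding sequence.
Sox9 coding exon: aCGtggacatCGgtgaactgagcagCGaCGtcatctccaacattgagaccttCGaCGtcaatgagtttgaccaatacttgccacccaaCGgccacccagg

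S100b encodes a calcium-binding protein of the S100 family, present in astrocytes and in some oligodendrocytes. The gene, on the plus strand of chromosome 10 from 76253836 to 76261319 (GeneID 20203), had only 3 tiles and none near its start. An intronic tile at +1.91 kb was lowest in brain, at 0.265 ± 0.112 (0.143 to 0.406, median 0.227), against 0.463 ± 0.071 in heart (0.387 to 0.568, median 0.464) and 0.673 ± 0.103 in liver (0.462 to 0.862, median 0.684). Brain and liver did not overlap, and heart overlapped slightly with both. Brain was lower than liver (difference -0.4086 ± 0.0482, limma adjusted p = 9.1e-08), whereas the difference from heart was below 0.25 and not called (-0.1983 ± 0.0557). The tile at +1.81 kb, with 1 CpG, had 0.507 in liver, 0.381 in brain and 0.427 in heart, and the coding exon tile at +3.21 kb was at 0.85 to 0.911 in all tissues. The sequence of the tile at +1.91 kb, chr10:76255701-76255800 (mm10, plus strand), is given because brain had the lowest mean there, and its 3 CpGs are in capitals.
S100b intron: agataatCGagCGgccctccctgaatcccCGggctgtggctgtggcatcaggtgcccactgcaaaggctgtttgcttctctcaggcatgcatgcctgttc

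Gfap encodes glial fibrillary acidic protein, the intermediate filament by which astrocytes are classically stained. It lies on the minus strand of chromosome 11 from 102887336 to 102897200 (GeneID 14580). None of its 10 tiles lay in the promoter, so the region most often studied for this gene was not covered in these tables. No tile of Gfap was called in any comparison, and its body means were 0.636 ± 0.0229 in liver, 0.627 ± 0.0111 in brain and 0.596 ± 0.0122 in heart. Closest to the start, in the first coding exon at +250 bp, brain was the lowest tissue with 0.743 ± 0.038 (0.69 to 0.789, median 0.749), against 0.882 ± 0.013 in liver (0.858 to 0.899, median 0.883) and 0.828 ± 0.038 in heart (0.782 to 0.871, median 0.836). Brain did not overlap with liver there and touched the range of heart. The difference from liver was -0.1398 ± 0.0162 (limma adjusted p = 6.8e-08), below the 0.25 needed for a call. The tile at +450 bp had the same order, with 0.847 in liver, 0.736 in brain and 0.827 in heart, and the tile between them did not, with 0.557, 0.564 and 0.508.

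About 4 kb inside Gfap, 2 CpG-rich coding exon tiles were unmethylated in every tissue. The tile at +3950 bp, with 12 CpGs, had 0.041 ± 0.034 in liver, 0.073 ± 0.046 in brain and 0.018 ± 0.008 in heart, and the tile at +4150 bp had 0.012, 0.029 and 0.0088. All libraries of these tiles were at or below 0.143. Tiles at +2450 to +2650 bp were methylated at 0.788 to 0.914 in all tissues. The largest span of the gene was 0.1488, in an intronic tile at +8250 bp that consists of repeat-masked sequence, with 0.758 ± 0.051 in brain, 0.69 ± 0.103 in liver and 0.61 ± 0.091 in heart.

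Gja1 encodes connexin 43, the gap junction protein that couples astrocytes to each other and cardiomyocytes to each other. The gene is on the plus strand of chromosome 10, from 56377300 to 56390419 (GeneID 14609). No tile lay in its promoter. Behind the start, 8 tiles between +850 and +1850 bp in the intron were below 0.1 in all tissues, and the first of them had 0.0312 ± 0.0324 in liver, 0.0155 ± 0.0117 in brain and 0.0148 ± 0.017 in heart. Towards the end of the gene heart lay below the other tissues. Of 18 tiles in all tables, 8 were lower in heart than in liver and 6 were higher in brain than in heart, while 0 were called between brain and liver in either direction. In the coding exon at +11 kb, heart had 0.597 ± 0.0796 (0.477 to 0.718, median 0.601), brain 0.969 ± 0.0363 (0.905 to 1, median 0.974) and liver 0.987 ± 0.027 (0.917 to 1, median 1). Heart overlapped with neither of the others. Heart was lower than liver (difference -0.3893 ± 0.0228, limma adjusted p = 2.1e-13), and brain was higher than heart by 0.371 ± 0.0264 (limma adjusted p = 3.5e-11).

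The same order was found farther along this exon, at +11.2 kb, where the levels were 0.939 in liver, 0.897 in brain and 0.58 in heart. In the 3′ untranslated region, at +11.4 and +12.2 kb, heart had 0.599 ± 0.066 and 0.6 ± 0.119 against 0.817 to 0.926 in the other tissues. An intronic tile at +6.35 kb was also low in heart, at 0.247 ± 0.076 against 0.597 ± 0.108 in brain and 0.771 ± 0.081 in liver.

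**Figure D5:**
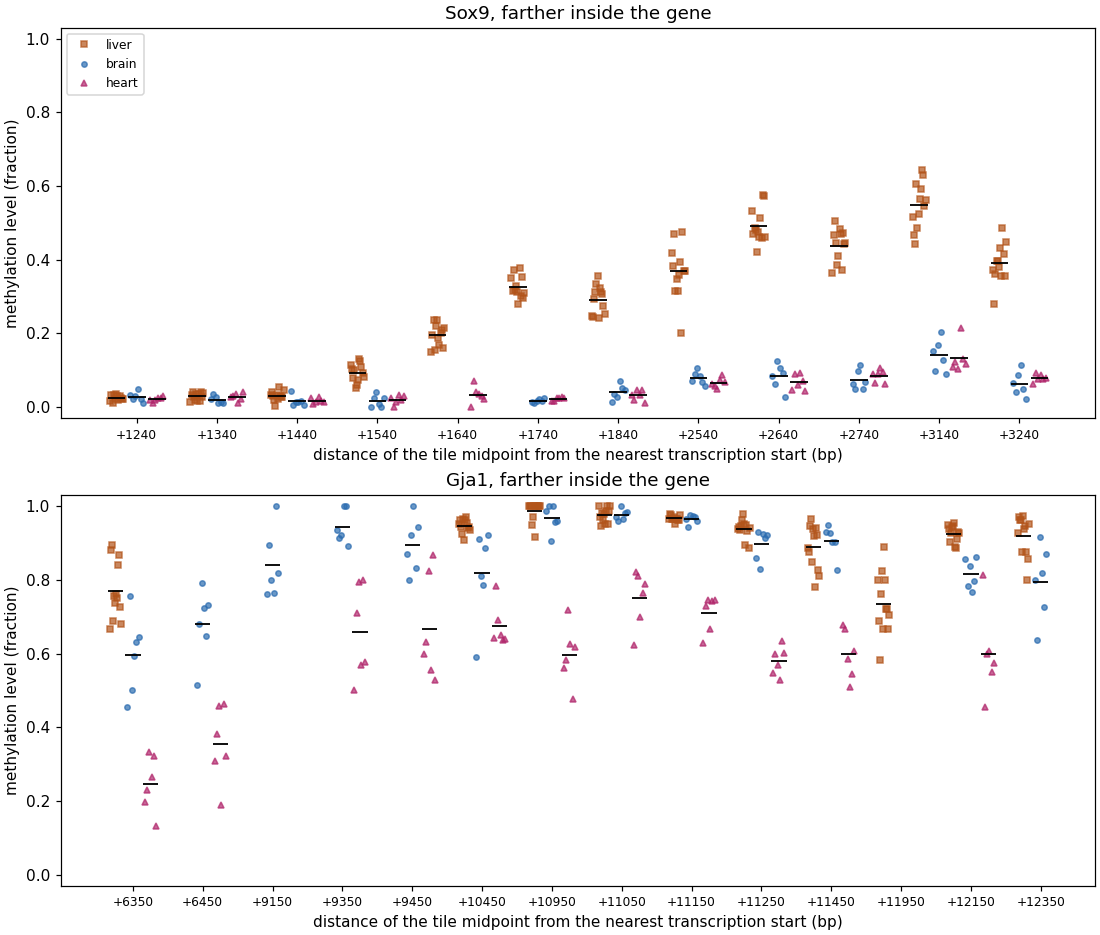
Points are single libraries and black bars tissue means of the methylation level (0 to 1) in tiles farther inside Sox9 (upper) and Gja1 (lower), in order of their distance in bp from the transcription start. Liver rises most along Sox9, from 0.093 at +1540 bp to 0.548 at +3140 bp, and lies at 0.39 at +3240 bp. Brain and heart means reach 0.14 and 0.13 at +3140 bp. Heart lies below the other tissues in every drawn tile of Gja1 that has a heart value, with 1 tile of the gene left out.

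Aqp4 encodes the water channel of astrocyte end-feet. RefSeq gives 3 curated starts for it on the minus strand of chromosome 18 (15389394 to 15410982, GeneID 11829), and the 5 promoter tiles lie between both inner starts, before 1 of them and behind the other. In this stretch brain and heart were lower than liver. Over the 5 tiles the promoter mean was 0.565 ± 0.0351 in liver (0.501 to 0.607, median 0.569), 0.333 ± 0.0208 in brain (0.313 to 0.367, median 0.329) and 0.367 ± 0.0426 in heart (0.311 to 0.428, median 0.366). Liver did not overlap with the other tissues, and brain and heart overlapped. The difference of -0.2314 ± 0.0172 between brain and liver (limma adjusted p = 2.6e-11) and of -0.1973 ± 0.0172 between heart and liver stayed below 0.25. At -152 bp liver had 0.805 ± 0.107, brain 0.393 ± 0.091 and heart 0.469 ± 0.149, and at -252 bp 0.667, 0.337 and 0.322. Of the 5 tiles, 4 were called lower in brain than in liver and 2 lower in heart than in liver. The tile nearest to a start, in a coding exon at +108 bp, did not follow, with 0.119 in liver, 0.258 in brain and 0.156 in heart.

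Elsewhere in Aqp4, the clearest difference of brain from both other tissues was found in the 3′ untranslated region, 10.8 kb behind an inner start. That tile had 0.492 ± 0.097 in brain (0.417 to 0.659, median 0.452), 0.914 ± 0.031 in liver (0.859 to 0.968, median 0.916) and 0.87 ± 0.056 in heart (0.765 to 0.922, median 0.881). Brain overlapped with neither and was lower than liver (difference -0.4219 ± 0.0293, limma adjusted p = 4.2e-12) and lower than heart (difference -0.3780 ± 0.0338, limma adjusted p = 1.8e-09). The adjoining tile had 0.606 in liver, 0.307 in brain and 0.498 in heart. An intronic tile at -1.29 kb from an inner start had 0.797 ± 0.054 in liver, 0.557 ± 0.196 in brain and 0.42 ± 0.083 in heart, and the brain libraries, from 0.304 to 0.786, overlapped with both. Tiles at -3.19 and -3.29 kb from an inner start were low in all tissues, at 0.195 and 0.16 in brain and 0.043 to 0.098 in liver and heart. The RefSeq locus A830021F12Rik overlaps Aqp4 from its inner promoters to its end.

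By the number of CpGs, the share of tiles with a span of 0.3 or more was lowest at 5 or more CpGs, in the 8 genes and over all tiles. Of the 53 tiles with 5 or more CpGs, 9 (16.98%) spanned 0.3 or more, of which 5 lay in Sox9, 2 in Gja1, 1 in Slc1a3 and 1 in Aldh1l1, and 29 were below 0.1 in all tissues. Of the 109 tiles with 2 to 4 CpGs, 27 (24.77%) spanned 0.3 or more, and of the 39 with a single CpG 11 (28.21%). Over all tiles of the 3 tables these shares were 5.62%, 15.2% and 16.85%. By annotation, 29 of 110 intronic tiles, 9 of 45 coding exon tiles and 4 of 24 upstream tiles spanned 0.3 or more. So did 3 of 8 tiles of 3′ untranslated and 2 of 14 of 5′ untranslated sequence. Shares by annotation over all tiles were not counted, so these numbers have no background to be read against. Of 9 pairs of adjoining tiles that both spanned 0.3 or more, 5 had the same lowest and the same highest tissue. How often tiles farther apart matched was not counted.

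Promoter sequences from RefSeq (GRCm38.p6, 250 bp before to 50 bp after the start) were at hand for 6 of the 8 genes, all but Aqp4 and Sox9, and were searched on both strands. That of Slc1a2 belongs to its second start, not to the unmethylated first promoter described above. TTCNNNGAA, the pattern of STAT factors, which act in astrocyte differentiation, was present in those of Gfap and Slc1a3 and in 8.35% of all 31396 promoters. TGANTCA, the pattern of AP-1, was present in that of Gja1 and in 7.84% of all promoters. The full palindromic pattern of NFI factors was present in 0 of the 6 and in 0.0382% of all promoters.

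A second list of 24 genes with known expression in astrocytes was counted beside the 8. Promoter means were measured for 20 of them. They were called lower in brain than in liver for 3 of 20, against 1.4% of all measured promoters, namely Sparcl1 (0.712 in liver, 0.135 in brain, 0.218 in heart), Hepacam (0.889, 0.628 and 0.851) and Aldoc (0.82, 0.534 and 0.614), and higher for 0. Between brain and heart 0 were called in either direction, and 1, that of Sparcl1, was lower in heart than in liver (2.23% of all). Of the 23 body means, 1, that of Aldoc, was lower in brain than in liver (0.749% of all), and that of Ndrg2 was higher in brain than in liver (1.44%) and in heart than in liver (0.852%). Promoter means of the list had medians of 0.0243 in liver, 0.0207 in brain and 0.0255 in heart.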

How the data were processed

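DNA methylation had been measured by an enhanced RRBS protocol of a sequencing service in liver, brain and heart of C57Bl/6J mice. Submitters' notes name Bismark, methylKit and the build mm10. The authors combined CpGs in tiles of 100 bp, kept those with more than 10 reads in every library of a tissue and deposited 1 table per tissue of methylation levels as a fraction between 0 and 1, without counts, so the depth behind a level is unknown, no counting interval can be given and the precision rests on the spread between libraries. Tiles were selected separately in each table. Of the deposited tiles, 99.8% (liver), 99.9% (brain) and 99.9% (heart) contain a CpG of the mm10 sequence, against 55.2%, 55% and 55.1% when moved by 100000 bp. No 2 libraries were alike (at most 0.867% equal values).

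Tiles were annotated with 43783 curated RefSeq transcripts (GRCm38.p6, the assembly of mm10). A promoter was the 1000 bp before any curated start, the upstream part reached 5000 bp before the gene, and the rest was body. Tissue levels are means of all columns. Tile levels, and gene means of promoter and body tiles, were compared with limma 3.58.1 in R 4.3.3 (eBayes with a trend, 3 tissues in 1 fit, Benjamini-Hochberg over all tiles or genes), called at an adjusted p of 0.01 or less and a difference of 0.25 or more. Fractions are bounded, so the logit (offset 0.01) was an alternative, as were other tile sets, thresholds, promoter definitions, CpG weights and leaving out each library. The brain and heart libraries carry 6 of the mouse numbers of the liver libraries, and 2 of these numbers have opposite gender labels there; columns carry running numbers, so neither mouse nor gender entered a fit, and p-values treat libraries as independent.

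Members and gene lists were chosen with earlier results of these data known. Named are all 8 genes, the tile with the largest span and the promoter tile nearest to the start in each, tiles with a span of 0.3 or more, and listed genes with a called promoter. Genes with a promoter most like that of Gfap were to be named too, which could not be done without a promoter tile. One tile of Gja1 that this rule names entered the counts and is not reported here.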

Additional observations from a re-analysis of the deposited data

Results flagged for a closer look

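In the tiles with a span of 0.3 or more and in the promoter and body means, the lowest or highest of the 6 brain or 6 heart libraries was set against the others by Dixon's ratio, the gap to the nearest library divided by the whole range. Of 118 groups, 4 had a library that stood apart beyond Dixon's critical value, which chance alone passes in about 1 of 20 groups. In the 3′ untranslated tile of Aqp4, heart column 6 had 0.765, with the other heart libraries at 0.864 to 0.922. In the Slc1a2 intron 56.4 kb behind the second start, brain column 3 had 0.417, with the others at 0.694 to 0.759. In the Aldh1l1 intron at +19.3 kb, heart column 4 had 0.232, with the others at 0.303 to 0.338. In the Sox9 coding exon at +3140 bp, heart column 4 had 0.214, with the others at 0.103 to 0.13. All 4 tiles kept their calls without any 1 library. They had been picked for a large span in the same values, so this was largely set by the selection.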

How the results depend on the processing

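No paired analysis was possible because a column of levels names its tissue alone and could not be tied to 1 mouse. The numbers of called tiles were within 1.5 times of the reported ones on the logit scale, without the variance trend and with all tiles of the 2 tables compared. Without the limit on the difference they rose to 63 lower and 27 higher in brain than in liver, 25 lower and 46 higher in brain than in heart, and 70 lower and 20 higher in heart than in liver, which holds by construction. Leaving out each library in turn gave 3 to 5 tiles lower in brain than in heart, with 5 without heart column 6, and moved no other number by over 1.5 times. Tiles with a span of 0.3 or more numbered 47, 50 by medians and 50 with tiles of at least 2 tables. They numbered 81 at a limit of 0.2 and 23 at 0.4. Of 83 called differences at the tiles with a span of 0.3 or more, 83 kept their call on the logit scale. Without any 1 library 82 kept it, the exception being the Slc1a3 tile at +8.36 kb. These tiles were picked for their span in the same values that were fitted. Their kept calls were largely set by that selection, so no robustness is read from them. The call of the Aldh1l1 promoter held under the other promoter definitions, weights and scale, and was lost without liver column 3 or brain column 2 because the difference fell below the limit. No result reversed. Depth per level is unknown, tiles of a gene are not independent, and the promoters of Gfap, Slc1a3, S100b and Gja1 held no tile.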
